A study of Mus musculus with 17 samples.

Results

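Loss of Usp28 was examined in immortalized mouse embryonic fibroblasts, by setting cells labelled -/- for the gene (3 libraries) against cells labelled +/+ (3 libraries). These are 6 of the 17 libraries of the series, chosen by their genotype labels and by the absence of Ras transformation. The fibroblasts of every group derive from E13.5 C57bl/6 embryos. A retroviral hairpin against p19ARF (pRetroSuper-shp19ARF) immortalized them, so the +/+ controls carry that knockdown too. The immortalized groups received no overexpression vector. For comparison, values are also given from 3 immortalized libraries with a single intact allele (+/-) and from Ras cells, which additionally carry HRasG12V and a GFP vector (2 libraries of +/+ and 2 of -/-). The labels call the immortalized libraries biological triplicates, but do not say how many embryos or cultures they came from. Poly(A) RNA was prepared with either of 2 NEBNext kits, and the labels do not say which kit made which library.

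Usp28 is a deubiquitinase, an enzyme that removes ubiquitin chains from other proteins. It binds Fbw7, the subunit by which an SCF ubiquitin ligase recognises phosphorylated substrates such as Myc, Jun, cyclin E and Notch, and it can protect both Fbw7 and substrates of Fbw7 from breakdown. The title of the series names this dual role and oncogenic transformation. These are events at the protein level, whereas the data here measure RNA. Embryonic fibroblasts in culture are matrix-producing mesenchymal cells. Knockdown of p19ARF, which normally restrains Mdm2 and thereby keeps p53 active, lets them divide without entering senescence.

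The authors deposited comparisons, not values for single libraries. A level in RPM (reads scaled to a depth of 1000000) was rebuilt for each group from the log2 concentration and the log2 ratio in the authors' deposited table, and every fold below is that table's log2 ratio turned to -/- over +/+. Depth, read from the steps of 1 read among low values, was 12.3 M reads (M, 1000000) for +/+ and 11.4 M for -/-, each summed over 3 libraries. A single read is thus 0.0813 RPM in +/+ and 0.0879 RPM in -/-. The deposited edgeR p-value was adjusted by Benjamini and Hochberg's method over the 16727 genes that averaged 1 RPM or more across the 2 groups, and a gene with an adjusted p under 0.05 is called changed. The implied standard error (SE) beside a fold comes from the read counts and from the common dispersion behind the deposited p, which corresponds to a coefficient of variation of 20.9% between libraries. It is not a spread measured for the gene, and it is too small for genes that vary more than the typical gene. Whether single libraries of the 2 groups overlapped cannot be told from group values.

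Usp28 RNA itself stood at 16.5 RPM in +/+, and the group labelled -/- had 13.3 RPM. Its log2 ratio was -0.32 (implied SE 0.29, 95% interval -0.89 to 0.25, adjusted p = 0.732), so the RNA of the targeted gene did not tell these groups apart. Usp28 was 9.96 RPM in +/- (adjusted p = 0.457 against +/+), below the -/- level, and in Ras cells it was 26.5 RPM in +/+ and 14.8 RPM in -/- (adjusted p = 0.00397). The labels used here do not say which part of the gene was removed, and counts over the whole gene do not check a deletion of part of it. Directions below therefore rest on the labels of the libraries. Defining markers of fibroblasts were present in both groups: Vim was 4749.6 and 4676 RPM, Col1a2 7422 and 6034 RPM, and Prrx1 312 and 357 RPM in +/+ and -/-. The summed level of 12 fibroblast markers was 44372 RPM in +/+ and 38741 RPM in -/-. Of the 12, 3 were called lower (Pdgfra, Pdgfrb and Col3a1) and none higher, against 2.93% and 1.29% of all tested genes. Vim, Col1a2 and Prrx1 were among the uncalled members.

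Markers of other cells had low summed levels, and some of those that reached the level minimum were called. Summed levels in +/+ and -/- were 19.6 and 23.6 RPM over 9 endothelial genes, 21.0 and 35.8 RPM over 12 leukocyte genes, 51.2 and 68.9 RPM over 9 epithelial genes, 73.9 and 83.5 RPM over 8 mesothelial genes, 259 and 389 RPM over 14 neural genes, and 146 RPM in both groups over 12 muscle genes. Krt19 made up most of the epithelial and mesothelial sums (44.8 and 67.0 RPM). In both groups 0 reads were found for 1 of 9 endothelial genes (Cldn5), 1 of 9 epithelial (Cldn4), 1 of 12 leukocyte (Aif1), 1 of 14 neural (Nefl) and 3 of 12 muscle genes (Myf5, Myog and Mymk), and the other members had reads in at least 1 group. Of 25 genes of these 6 lists that reached the level minimum, 10 were called (40.0%, against 4.21% of all tested genes): Lyz2, Nes, Stmn2, Sox2, Des, Tek and Upk1b were higher and Cdh1, Msln and Rspo1 were lower in -/-. Lyz2, a macrophage lysozyme, went from 0.408 to 4.32 RPM, and the C1q genes that macrophages make, all under the level minimum, went from 0 to 1.15 RPM for C1qa, 0.0813 to 1.05 RPM for C1qb and 0 to 1.07 RPM for C1qc. Lyz2, Sox2, Des and Upk1b lay under 1 RPM in +/+, and Cdh1 lay under 1 RPM in -/-. These genes passed the level filter only through the group in which they were high. The share of 40.0% is thus partly set by the filter, and no conclusion is drawn from it. Sox2 and Tek lost their calls with the dispersion doubled. Tek also lost its call without the level filter, with p rebuilt from the dispersion and with folds centred on the median gene. Xist, made from the inactive X chromosome, was 89.7 and 126 RPM, and the Y-linked Ddx3y was 38.3 and 43.8 RPM, so each group held RNA of both sexes, and neither gene was called. The part of these markers in the results below was not tested. In bulk RNA, fewer cells of a type and less RNA per cell cannot be told apart.

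Of the 16727 genes tested, 705 were called (4.21%), and more of them fell than rose. Lower calls numbered 490 (2.93% of the tested genes) and higher calls 215 (1.29%). With folds centred on the median gene, whose log2 ratio was 0.07, the split was 580 lower and 149 higher. Falls were also larger: 114 genes fell and 32 rose past 4-fold, and 43 fell and 7 rose past 8-fold. The smallest called log2 ratio was 0.79 in size, and among genes of 1 to 2 RPM, where the median implied SE was 0.57, it was 1.67. The -/- level lay under 1 RPM for 62 of the lower genes, and the +/+ level for 30 of the higher genes. Such genes passed the level filter only through the group in which they were high.

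**Figure D1:**
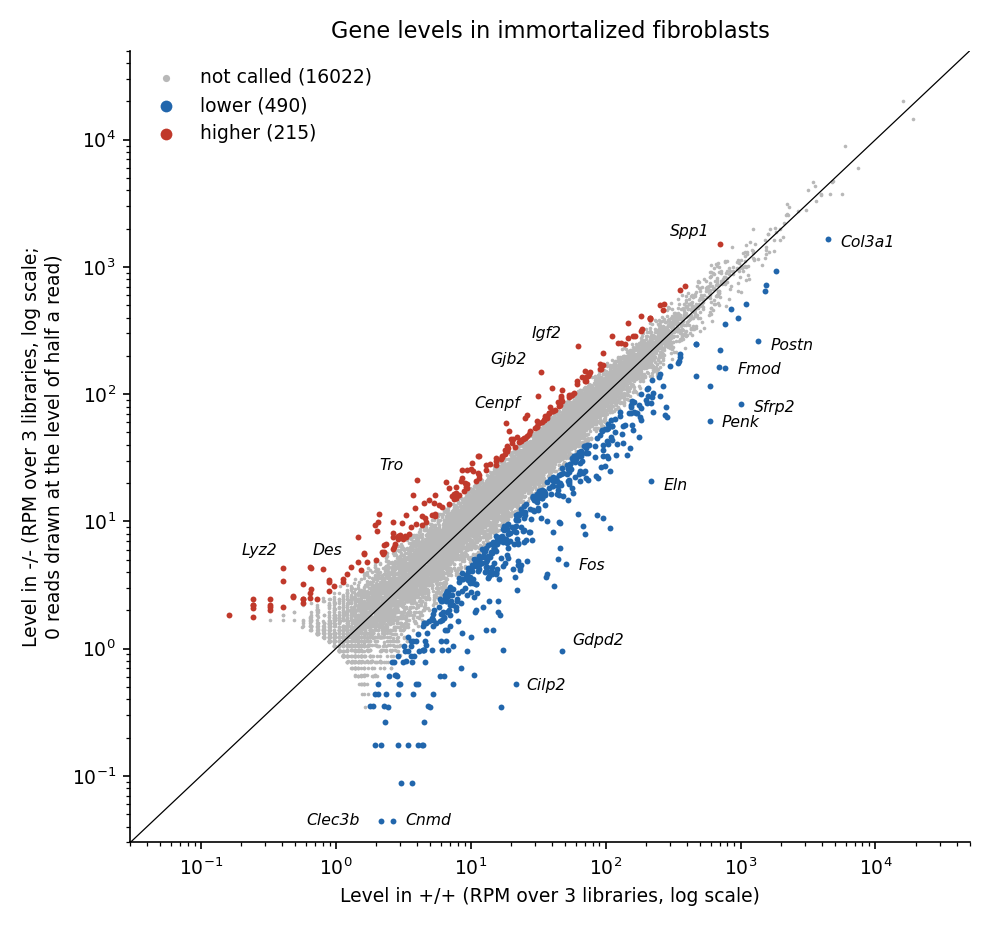
Level of each tested gene in +/+ (horizontal) and -/- (vertical), in RPM over 3 libraries on log axes, with equality as the line, 490 lower genes in blue and 215 higher genes in red. Lower genes reach farther from the line, with Sfrp2, Penk, Eln and Gdpd2 among the farthest, and Cnmd and Clec3b, with 0 reads in -/-, are drawn at the level of 0.5 reads.

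Among the steepest falls at a mean level of 10 RPM or more were a membrane phosphodiesterase, matrix proteins, secreted signals and an enzyme of prostacyclin synthesis. Gdpd2, a glycerophosphodiester phosphodiesterase, fell from 47.6 to 0.958 RPM (log2 -5.64, implied SE 0.50, adjusted p = 2.9e-40). Cilp2, a matrix protein of cartilage, fell from 21.7 to 0.529 RPM (log2 -5.36, implied SE 0.62, adjusted p = 1.0e-26). Penk, the precursor of enkephalin peptides, fell from 589 to 61.8 RPM (log2 -3.25, implied SE 0.25), and A830012C17Rik, which overlaps Penk on the opposite strand and may share its reads, fell from 44.7 to 5.05 RPM. Ptgis, which makes prostacyclin, fell from 69.8 to 7.90 RPM (log2 -3.14, implied SE 0.29).

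Rises were smaller than falls. Gjb2, the gap junction protein connexin 26, rose from 33.0 to 149 RPM (log2 2.17, implied SE 0.26, adjusted p = 3.6e-13). Tro, which encodes the adhesion protein trophinin, rose from 4.02 to 21.1 RPM (log2 2.39, implied SE 0.33). Igf2, the fetal insulin-like growth factor, rose from 62.3 to 237 RPM (log2 1.93, implied SE 0.25), and Slc38a4, an amino acid transporter that is imprinted like Igf2, from 31.6 to 96.5 RPM (log2 1.61, implied SE 0.26). Other genes among the largest rises were Rasgrp3, a Ras and Rap exchange factor (8.64 to 25.4 RPM), Lipg, endothelial lipase (39.8 to 111 RPM), Flt4, a VEGF receptor (log2 1.64), Adam8, a membrane protease (9.32 to 25.3 RPM), and Isyna1, which makes inositol phosphate (6.88 to 18.4 RPM). Among genes of high level, Spp1 (osteopontin) rose from 701 to 1508 RPM, Sulf1, a heparan sulfatase, from 390.2 to 711 RPM, Lrrc32, which displays latent TGF-beta, from 356 to 664 RPM, Il1rl1, the interleukin 33 receptor, from 255 to 503 RPM, and Slit2, an axon guidance ligand, from 271 to 509.6 RPM. These 5 genes of high level lost their calls with the dispersion doubled.

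The genes of the Usp28 and Fbw7 system did not pass the test. None of 8 tested members was called, and their median log2 ratio was 0.25. With 4.21% of all tested genes called, a list this short can readily hold no call. Fbxw7 was 17.9 RPM in +/+ and 24.4 RPM in -/- (log2 0.44, implied SE 0.28, adjusted p = 0.511). Usp25, the closest relative of Usp28, was 33.6 and 38.8 RPM, Cul1, the ligase scaffold, 67.4 and 91.1 RPM, and Skp1a, its adaptor, 68.1 and 80.0 RPM, all uncalled.

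Of 24 tested genes whose proteins are substrates of Fbw7, 1 rose and 3 fell, with a median log2 ratio of 0.17. Over all tested genes, 1.29% rose and 2.93% fell. Rictor, a subunit of mTOR complex 2, rose from 35.6 to 65.3 RPM (log2 0.87, implied SE 0.26). The genes that fell were the transcription factors Klf2 (102 to 42.7 RPM), Junb (201 to 110.0 RPM) and Cebpa (9.61 to 4.33 RPM). Myc was 92.0 and 104 RPM (log2 0.17, adjusted p = 0.876), Jun 247 and 259 RPM (log2 0.07, adjusted p = 0.964), Ccne1 56.8 and 68.1 RPM (log2 0.26, adjusted p = 0.759), Notch1 58.6 and 56.4 RPM (log2 -0.06, adjusted p = 0.980) and Mtor 51.2 and 69.7 RPM (log2 0.44, adjusted p = 0.454). Rictor, Cebpa and Junb lost their calls when the dispersion was doubled, and Rictor and Cebpa also without the level filter.

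Of 29 p53 target genes, 3 rose and 1 fell, with a median log2 ratio of 0.41. Of these 29, 22 lay above 0, against 57.2% of all tested genes. For comparison, 1.29% of all tested genes rose and 2.93% fell. Pmaip1, which encodes the cell death factor Noxa, rose from 5.42 to 16.2 RPM (log2 1.58, implied SE 0.32), Eda2r, a death domain receptor, from 5.36 to 13.9 RPM, and Ccng1, cyclin G1, from 112 to 287 RPM (log2 1.36, implied SE 0.25). Pltp, a phospholipid transfer protein that p53 can induce and that lipid signals also control, fell from 145 to 33.1 RPM (log2 -2.13, implied SE 0.26). Cdkn1a (p21) was 119 and 183 RPM (log2 0.61, adjusted p = 0.183), Trp53 114 and 141 RPM (adjusted p = 0.671), and Cdkn2a, the locus of p19ARF, 119 and 117 RPM (adjusted p = 1.00). Among 17 checkpoint genes Atm, the kinase that signals double-strand breaks, was the single call, from 12.9 to 25.4 RPM (log2 0.98, implied SE 0.28), and it lost the call with the dispersion doubled. Chek2 was 8.81 and 9.80 RPM, and Trp53bp1, which binds Usp28 protein, 60.3 and 63.6 RPM, both uncalled.

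Genes of mitosis had mostly higher levels in -/-, by small amounts of which few passed the test. Of 45 genes of G2 and mitosis, 6 rose and none fell, with a median log2 ratio of 0.60, and 44 of the 45 lay above 0. Over all tested genes, 1.29% rose, 2.93% fell and 57.2% lay above 0. The calls were all among 24 genes of the kinetochore and spindle: Cenpe, a kinetochore motor (38.5 to 79.5 RPM), Cenpf, a kinetochore protein (31.0 to 62.0 RPM), Ect2, which sets the cleavage plane (71.5 RPM in -/-), Aspm, a spindle pole protein (27.5 to 51.5 RPM), Hmmr, which helps assemble spindles (36.5 to 65.3 RPM), and Anln, anillin of the contractile ring (140.1 to 246 RPM). Their log2 ratios were 1.05 for Cenpe, 1.00 for Cenpf, 0.91 for Ect2 and Aspm, 0.84 for Hmmr and 0.81 for Anln, with implied SE of 0.25 to 0.27. Each of these 6 calls was lost with the dispersion doubled, and those of Hmmr and Anln also without the level filter and with centred folds. The kinases and cyclins were uncalled, for example Bub1 (26.0 and 45.6 RPM, adjusted p = 0.0594), Ccnb1 (35.2 and 55.3 RPM, adjusted p = 0.173) and Plk1 (89.0 and 133 RPM, adjusted p = 0.237).

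None of 39 tested E2F and replication genes was called, and their median log2 ratio was 0.03. Rrm1, a subunit of ribonucleotide reductase, was 182 and 274 RPM (log2 0.59, adjusted p = 0.204), and Rrm2, the other subunit, 172 and 208 RPM. The cyclins of G1 and their kinases gave no call among 16 genes either, with Ccnd1 at 345 and 558 RPM (log2 0.69, adjusted p = 0.0971) and Ccnd2 at 484 and 765 RPM (log2 0.66, adjusted p = 0.124). Among growth genes, 1 of 38 genes of ribosome biogenesis and Myc-driven growth rose (Tfrc, the transferrin receptor, 25.2 to 65.4 RPM), with a median log2 ratio of 0.41. None of 41 cytosolic ribosomal protein genes was called, with a median of 0.06. With 4.21% of all tested genes called, few or no calls do not set lists of this size apart. The difference between the mitosis list and the replication list was not tested.

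Promoters of mitotic genes often hold the CCAAT box (CCAAT), bound by NF-Y, and the cell cycle homology region (CHR, TTTGAA or TTCGAA), bound by the DREAM and B-Myb complexes. In RefSeq windows of GRCm38.p6 that run from 250 bases before to 50 bases after a gene start, read on both strands, 75.6% of 41 windows of the tested mitosis genes held a CCAAT box, against 37.4% of all 32851 windows. The CHR was in 70.7% of the 41 windows and in 19.2% of all. Among windows of all genes called higher the CCAAT box stood in 40.2% and the CHR in 22.2%, and among those called lower in 34.4% and 14.6%. In the 13272 windows of tested genes, from which the called genes come, these shares were 37.6% and 14.2%. The 150 bases before the start of 4 of the 6 called mitosis genes are given here because they hold more than 1 CCAAT box, in capitals on whichever strand they fall (CCAAT or, on the other strand, ATTGG). They come from Cenpf (chr1:189688087-189688236, minus strand), Ect2 (chr3:27153879-27154028, minus strand), Aspm (chr1:139454623-139454772, plus strand) and Hmmr (chr11:40733438-40733587, minus strand), 5′ to 3′ towards the start.
Cenpf: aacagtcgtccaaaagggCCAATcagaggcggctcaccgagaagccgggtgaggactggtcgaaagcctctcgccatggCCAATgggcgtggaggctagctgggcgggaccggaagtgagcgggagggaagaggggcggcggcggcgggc
Ect2: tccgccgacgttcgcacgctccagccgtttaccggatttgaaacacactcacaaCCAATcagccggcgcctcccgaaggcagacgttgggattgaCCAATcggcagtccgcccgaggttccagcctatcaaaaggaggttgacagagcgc
Aspm: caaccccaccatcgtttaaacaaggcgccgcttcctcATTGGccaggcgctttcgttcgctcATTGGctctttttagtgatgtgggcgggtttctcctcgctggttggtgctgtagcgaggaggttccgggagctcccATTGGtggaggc
Hmmr: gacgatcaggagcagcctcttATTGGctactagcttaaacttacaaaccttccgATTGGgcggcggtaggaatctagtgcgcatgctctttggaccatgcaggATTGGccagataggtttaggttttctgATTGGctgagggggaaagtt
Cenpf and Ect2 held 2 boxes each in these bases, Aspm 3 and Hmmr 4. Each of the 4 also held 1 CHR in the 50 bases after its start, which are not printed, and Ect2 a second CHR within the printed bases. The remaining 2 called genes differ: in its whole window Cenpe has 1 CCAAT box and no CHR, and Anln has 2 CHR and no CCAAT box. A match describes the letters and does not show that a factor binds there.

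RNA of immediate-early genes appears within minutes of a growth factor signal, without new protein synthesis. Of 33 tested, 9 fell in -/- and none rose, against 2.93% and 1.29% of all tested genes, with a median log2 ratio of -0.40. Fos, the partner of Jun in AP-1, fell from 50.8 to 4.63 RPM (log2 -3.46, implied SE 0.32, adjusted p = 1.4e-23). Egr1, a zinc finger factor induced through SRF, fell from 703 to 223 RPM (log2 -1.65, implied SE 0.25), Ier2 from 176 to 46.3 RPM (log2 -1.92, implied SE 0.26), the orphan receptor Nr4a1 from 179.9 to 66.7 RPM (log2 -1.43, implied SE 0.25), and Zfp36, which destabilises AU-rich mRNA, from 95.6 to 32.4 RPM (log2 -1.56, implied SE 0.26). Klf2 and Junb, given above, belong to the same list. The remaining calls, outside the rule for named genes and named after their values were seen, were the phosphatase Dusp1 (99.0 to 53.3 RPM) and Zfp36l1 (58.5 to 32.8 RPM). Jun was uncalled, as given above, and Fosb (7.77 and 3.93 RPM, adjusted p = 0.0940) and Nr4a3 (2.97 and 0.884 RPM, adjusted p = 0.0575) missed the threshold. None of 16 feedback genes of Ras and MAPK signalling was called, Epha2 being 181 and 206 RPM and Phlda1 88.6 and 91.8 RPM.

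**Figure D2:**
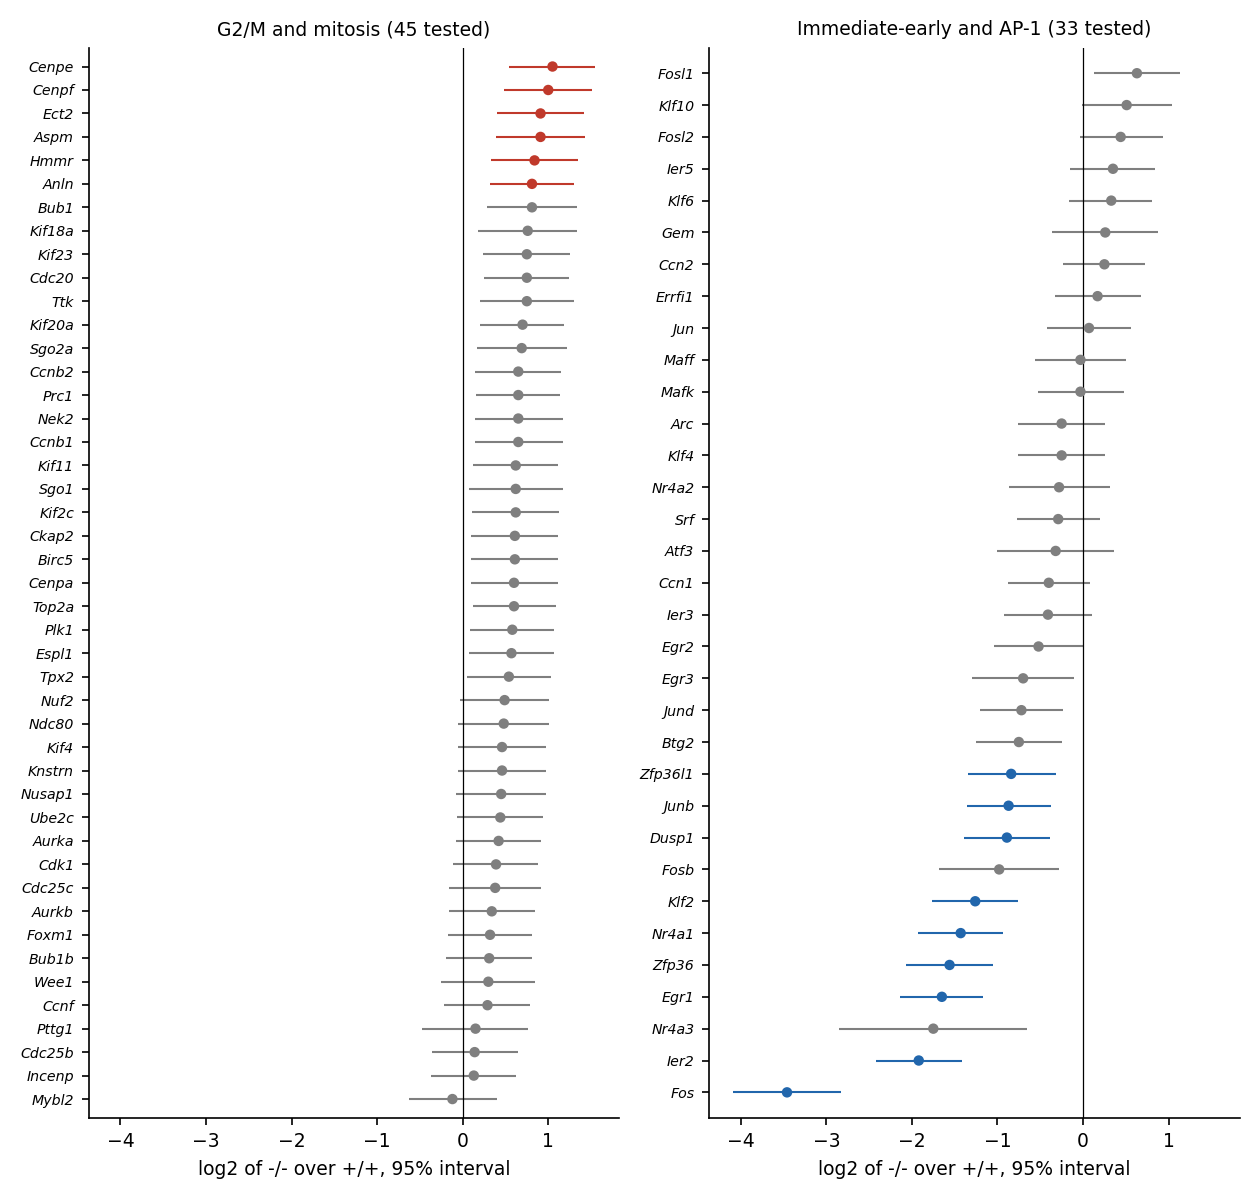
log2 of -/- over +/+ for each tested gene of the mitosis list (left, 45 genes) and the immediate-early list (right, 33 genes), with the 95% interval from the implied SE and called genes in colour. The mitosis genes lie in a narrow band with 44 of 45 above 0 and 6 called, while the immediate-early genes spread from -3.46 for Fos to above 0 with 9 called lower.

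The CArG box, the site of SRF, stood in 18.8% of 32 promoter windows of the tested immediate-early genes and in 1.63% of all windows, and the cyclic AMP response element (CRE, TGACGTCA or TGACGCAA) in 15.6% and 2.26%. In windows of all tested genes the CArG box stood in 1.38% and the CRE in 3.74%. Zfp36, which fell, has a CArG box 58 bases before its start (chr7:28379229-28379378, minus strand), and Dusp1 a CRE 143 bases before its start (chr17:26508473-26508622, minus strand), shown in capitals.
Zfp36: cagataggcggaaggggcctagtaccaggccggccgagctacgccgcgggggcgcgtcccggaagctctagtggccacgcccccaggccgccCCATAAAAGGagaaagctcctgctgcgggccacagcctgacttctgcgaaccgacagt
Dusp1: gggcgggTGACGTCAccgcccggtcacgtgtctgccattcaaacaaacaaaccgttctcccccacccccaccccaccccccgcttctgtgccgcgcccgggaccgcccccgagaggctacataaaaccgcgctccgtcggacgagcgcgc
Of the called immediate-early genes, 7 have a window in the RefSeq table used, and 1 of the 7 holds a CArG box and 1 a CRE.

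Several lists of matrix genes held lower calls. Beside the counts of these and the later lists stand the shares over all tested genes, of which 2.93% fell and 1.29% rose. Some called members lay under 1 RPM in 1 group and passed the level filter only through the other, so such counts are partly set by the filter. Small leucine-rich proteoglycans bind collagen and set the width of its fibrils. Of 13 tested, 9 fell and none rose, and all 13 log2 ratios were below 0, with a median of -1.85. Fmod (fibromodulin) fell from 771 to 160.1 RPM (log2 -2.27, implied SE 0.25), Aspn (asporin) from 152 to 37.9 RPM (log2 -2.01, implied SE 0.26), Dcn (decorin) from 45.6 to 6.21 RPM (log2 -2.87, implied SE 0.31), Lum (lumican) from 36.2 to 3.63 RPM (log2 -3.32, implied SE 0.34), Omd (osteomodulin) from 13.6 to 2.37 RPM and Ecm2 from 4.85 to 0.352 RPM. Ogn, Prelp and Podn were the others, with log2 ratios of -1.82, -1.85 and -1.20. Bgn (biglycan), at 4599 and 3729 RPM, was uncalled (log2 -0.30, adjusted p = 0.668). Aspn overlaps Cenpp on the opposite strand, and the sources used here do not say whether counting used strand.

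Of 35 collagen genes tested, 12 fell and none rose (median log2 -0.47). The main fibrillar pair of bone and skin was not called: Col1a1 was 18921 and 14627 RPM (log2 -0.37, implied SE 0.25, adjusted p = 0.550) and Col1a2 had a log2 ratio of -0.30. Col3a1, the fibrillar collagen of distensible tissue, fell from 4419 to 1669 RPM (log2 -1.40, implied SE 0.25), and the microfibrillar Col6a1 from 1817 to 934 RPM (log2 -0.96) and Col6a2 from 1535 to 722 RPM (log2 -1.09). Col6a1 and Col6a2 lost their calls with the dispersion doubled. Col8a2 fell from 134 to 41.6 RPM, Col15a1 from 14.3 to 3.87 RPM and Col14a1 from 5.14 to 0.973 RPM.

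Cartilage genes were among those that fell: 9 of 19 tested, with none higher and a median log2 ratio of -0.91. They included the master regulator Sox9 (35.3 to 16.6 RPM), the main cartilage collagen Col2a1 (224 to 71.9 RPM, log2 -1.64, implied SE 0.25), its partners Col11a2 (6.50 to 1.41 RPM) and Col9a2 (3.74 to 1.14 RPM), the proteoglycan aggrecan, Acan (7.87 to 2.39 RPM), Comp (53.3 to 19.8 RPM) and Matn4 (5.95 to 0.613 RPM). Col9a1 fell from 29 reads to 3 (log2 -3.15, 95% counting interval -5.52 to -1.47). Cnmd (chondromodulin) had 33 reads in +/+ and 0 in -/-, so against a floor of 3 reads over the group it was at least 10.0-fold lower. Matn4, Col9a1 and Cnmd lay under 1 RPM in -/- and passed the level filter only through +/+. The count of cartilage calls is thus partly set by the filter. Sox9 and Col2a1 are named here after their values were seen. Col9a2 lost its call with the dispersion doubled.

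Elastic fibre and matricellular genes held several lower calls and a single higher call each. Summed levels in +/+ and -/- were 13476 and 13129 RPM over the elastic fibre list. Over the matricellular list they were 37445 and 42283 RPM, so the falls named here did not lower that sum. Of 19 elastic fibre genes, 4 fell and 1 rose. Eln, the elastin core itself, fell from 217 to 20.6 RPM (log2 -3.40, implied SE 0.26, adjusted p = 4.8e-29), Ltbp4, needed for elastin assembly, from 183 to 62.5 RPM, Fbln1 by -1.23 on the log2 scale and Ltbp3, which overlaps another gene on the opposite strand, from 844 to 468 RPM. Efemp1 (fibulin 3) rose from 18.3 to 59.8 RPM (log2 1.71, implied SE 0.27). Of 27 matricellular genes 8 fell, among them Postn (periostin, 1345 to 260.0 RPM, log2 -2.37, implied SE 0.25), Sparcl1 (8.66 to 1.32 RPM), Spon2 (15.8 to 4.22 RPM) and the tenascin Tnxb (9.62 to 3.57 RPM), and Spp1 rose as given above. Ltbp3 and Tnxb lost their calls with the dispersion doubled.

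Enzymes that build and cut the matrix fell in part. Of 20 collagen processing genes, 3 fell and 1 rose: Pcolce, which enhances procollagen cleavage, from 1522 to 648 RPM (log2 -1.23, implied SE 0.25), the prolyl hydroxylase P3h2 from 4.55 to 1.15 RPM, and the procollagen C-proteinase Bmp1 from 357 to 207 RPM, while its relative Tll1 rose from 74.3 to 139.9 RPM. Of 37 matrix proteases and inhibitors, 7 fell and 1 rose, with Adamts2, which trims procollagen, at 159 and 51.9 RPM (log2 -1.62), Mmp2, a gelatinase, at 1091 and 512 RPM, the protease inhibitors Serpinf1 at 766 and 355 RPM and Serpine2 at 267 and 115 RPM, and the riser Adamts18 at 3.46 and 7.92 RPM. Pcolce overlaps Fbxo24 on the same strand and may share its reads. Bmp1, Tll1, Mmp2, Serpinf1 and Adamts18 lost their calls with the dispersion doubled. None of 17 genes of the TGF-beta system was called (median log2 0.11). Of 31 integrins and basement membrane genes, Itgav (186 to 327 RPM) and Itga6 (35.1 to 62.9 RPM) rose and Nid2 (464 to 248 RPM), Lama4 (61.0 to 33.3 RPM) and Itga10 (6.82 to 2.80 RPM) fell. All 5 calls were lost with the dispersion doubled, and those of Itgav and Itga6 also with centred folds and without the level filter.

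Genes that mark quiescent or tissue-resident fibroblasts held the highest count of lower calls. Of 31 tested genes of growth arrest and stromal fibroblasts, 16 fell and none rose (median log2 -1.09). Gas1, a membrane protein induced in growth arrest, fell from 285 to 66.3 RPM (log2 -2.10, implied SE 0.25), Gas6, the ligand of Axl-family receptors, from 216 to 85.8 RPM, Islr from 95.9 to 10.7 RPM (log2 -3.16, implied SE 0.28), the ferritin receptor Scara5 from 17.4 to 0.973 RPM (log2 -4.16, implied SE 0.50) and dermatopontin, Dpt, from 9.37 to 0.965 RPM. Clec3b (tetranectin) had 27 reads in +/+ and 0 in -/-, at least 8.26-fold lower against the floor of 3 reads. The PDGF receptors belong here as well: Pdgfra fell from 119.9 to 33.0 RPM (log2 -1.86, implied SE 0.26), Pdgfrb from 354 to 195 RPM and the receptor-like Pdgfrl from 87.2 to 21.8 RPM, while the ligand Pdgfc rose from 37.0 to 67.1 RPM. Pdgfrb and Pdgfc lost their calls with the dispersion doubled.

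Contractile genes gave 2 higher calls among 17 and no lower call: Cnn1 (calponin, 146 to 275 RPM) and Des (desmin, 0.650 to 4.34 RPM). Adipocyte and lipid genes gave 6 lower and 2 higher calls among 23. Apod fell from 10.6 to 0.617 RPM (log2 -4.10, implied SE 0.59), Apoe from 14.4 to 4.36 RPM, and the preadipocyte factor Zfp423 from 3.82 to 0.879 RPM, whereas Ebf2 rose from 0.888 to 2.83 RPM. Cnn1 and Ebf2 lost their calls with the dispersion doubled, and Ebf2 under 3 other settings too.

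**Figure D3:**
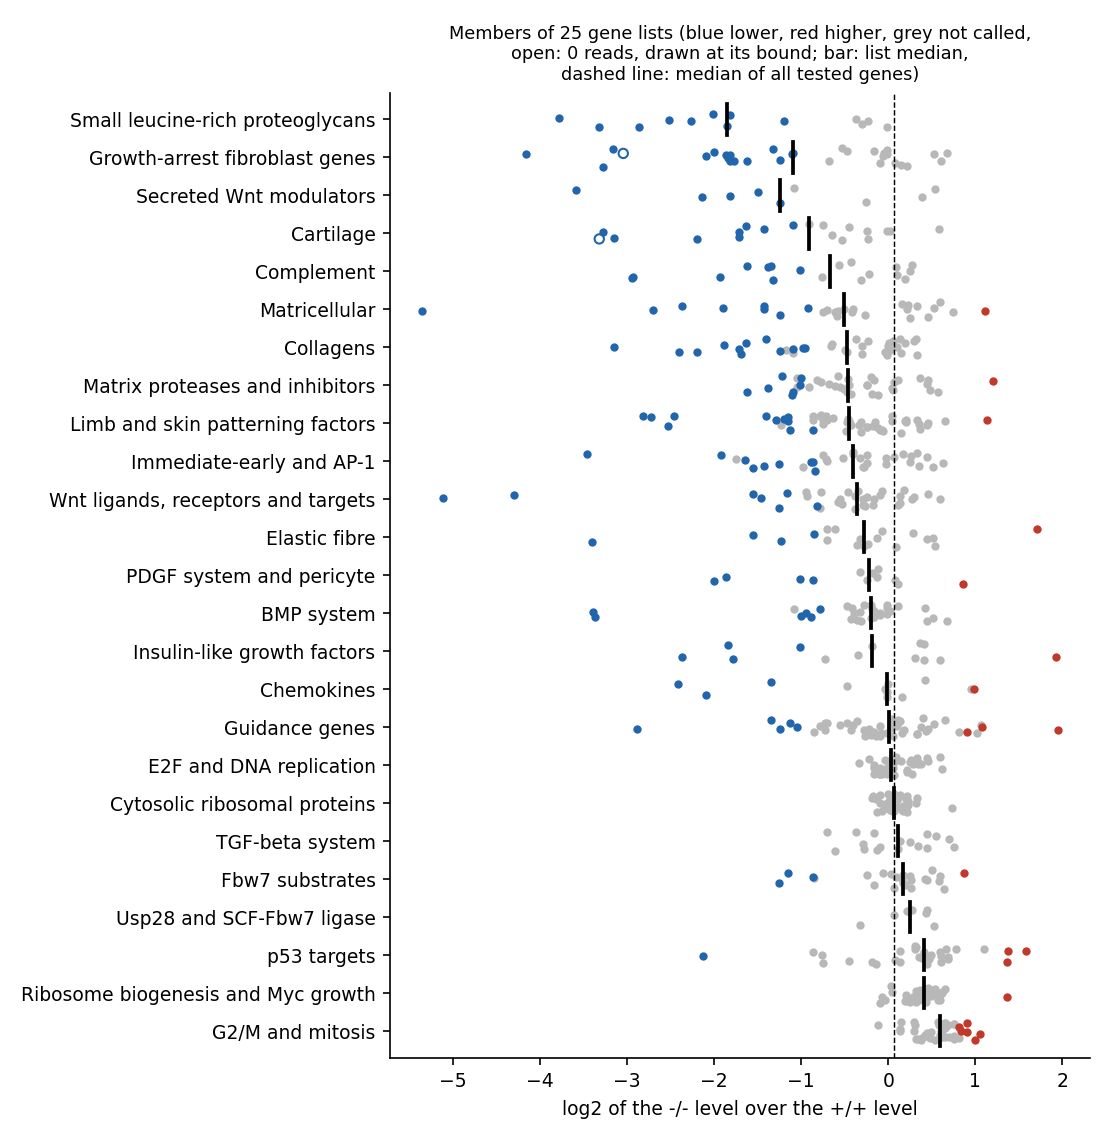
log2 of -/- over +/+ for every tested member of 25 gene lists, with the list median as a bar and the median of all tested genes (0.07) as a dashed line. Proteoglycans, with a median of -1.85, and secreted Wnt modulators, with -1.25, have the medians farthest to the left, and mitosis genes, with 0.60, farthest to the right.

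Of 9 secreted Wnt modulators, 5 fell and none rose (median log2 -1.25). Sfrp2, a decoy that binds Wnt, fell from 1008 to 83.6 RPM (log2 -3.59, implied SE 0.25, adjusted p = 2.7e-34), the Lrp6 ligand Dkk2 from 109 to 45.7 RPM, the Wnt deacylase Notum from 4.66 to 1.06 RPM, and the R-spondins, which raise Wnt receptor levels, with Rspo3 going from 68.1 to 24.1 RPM and Rspo1 changing by -1.82 on the log2 scale. Sfrp1 (7.23 and 9.50 RPM) and Rspo2 (161 and 135 RPM) were uncalled. Thus both inhibitors and enhancers of Wnt signalling were among the genes that fell.

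Of 34 Wnt ligands, receptors and target genes, 7 fell and none rose (median log2 -0.36). The ligand Wnt10b fell from 19.6 to 8.14 RPM, and Wnt4 from 37 reads to 1 (log2 -5.12, 95% counting interval -10.44 to -2.53). The receptor Fzd8 fell from 64.4 to 28.9 RPM and Fzd9 from 42 reads to 2 (log2 -4.30, 95% counting interval -7.37 to -2.34). Axin2 and Nkd1, feedback targets of beta-catenin, fell from 4.68 to 1.59 RPM and from 9.49 to 3.45 RPM. Wnt10b, Fzd8, Axin2 and Nkd1 lost their calls with the dispersion doubled.

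BMP genes gave 6 lower calls among 32 and no higher call (median log2 -0.20). The ligands Bmp2, from 14.7 to 1.40 RPM (log2 -3.39, implied SE 0.45), and Gdf10, from 6.31 to 0.612 RPM (log2 -3.37, implied SE 0.60), changed most. The antagonists Chrd (51.9 to 27.9 RPM) and Chrdl1 (12.1 to 6.07 RPM), the inhibitory Smad6 (103 to 53.2 RPM) and the protease Bmp1 made up the rest, and these 4 lost their calls with the dispersion doubled, Chrdl1 also with p rebuilt from the dispersion.

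In the insulin-like growth factor system 4 of 13 genes fell and 1 rose. The ligands moved in opposite directions: Igf1 fell from 10.0 to 2.80 RPM (log2 -1.84, implied SE 0.38), while Igf2 rose as given above. Of 9 binding protein genes 3 fell and none rose, Igfbp2 from 595 to 115 RPM (log2 -2.37, implied SE 0.25), Igfbp5 from 57.1 to 16.6 RPM and Igfbp3 from 34.6 to 17.2 RPM. Of 17 imprinted growth genes, 3 rose and 2 fell. Beside Igf2 and Slc38a4, Dlk1, a Notch-like growth regulator, rose from 29.9 to 54.5 RPM, and Mest (222 to 95.5 RPM) and Dio3, which inactivates thyroid hormone (16.5 to 7.05 RPM), fell. Igf2 overlaps the antisense Igf2os, Mest overlaps Copg2, and a count without strand cannot tell them apart. Igfbp3, Dlk1 and Dio3 lost their calls with the dispersion doubled.

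Lower calls were also found among other growth factors, chemokines and complement. Angpt1, the ligand of Tek, fell from 23.1 to 4.15 RPM (log2 -2.47, implied SE 0.33), Ptn (pleiotrophin) from 103 to 32.9 RPM, Fgf10 from 45.2 to 16.1 RPM and Kitl, stem cell factor, from 52.8 to 26.5 RPM, 5 of 23 such factors in all counting Gas6. Of 12 chemokines, Cxcl12, which attracts Cxcr4-bearing cells, fell from 698 to 163 RPM (log2 -2.10, implied SE 0.25), Cxcl15 from 23.2 to 4.33 RPM and Cxcl14 from 31.5 to 12.4 RPM, and Ccl7 rose from 8.25 to 16.2 RPM. Ppbp, a platelet chemokine, was among the largest rises at 11.6 and 32.4 RPM. Of 18 complement genes 8 fell and none rose (median log2 -0.66), from the initiators C1ra (64.2 to 20.9 RPM) and C1s1 (111 to 43.7 RPM) through C4b (7.77 to 2.03 RPM) to the inhibitors Serping1 (6.48 to 2.49 RPM) and Clu (clusterin, 86.4 to 11.3 RPM, log2 -2.93, implied SE 0.28). Among 27 interferon response genes the GTPase Gvin1 was the single call, from 1.95 to 9.34 RPM (log2 2.26, implied SE 0.41). A single call there is near the 4.21% called over all tested genes. Kitl, Ccl7 and Serping1 lost their calls with the dispersion doubled.

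Transcription factors that pattern limb and skin fell more often than they rose, 11 of 51 against 1. En1, of the ventral limb and dermis, fell from 10.7 to 1.95 RPM (log2 -2.46, implied SE 0.41), Osr2, of joints and palate, from 15.9 to 2.39 RPM (log2 -2.73, implied SE 0.38), Six2 from 21.3 to 3.69 RPM (log2 -2.53, implied SE 0.34), Dlx3 from 7.41 to 1.05 RPM, Scx, of tendon, from 28.1 to 10.5 RPM and Emx2 from 7.27 to 2.97 RPM. Tbx3, the member that rose, went from 7.23 to 15.9 RPM and is named after its value was seen. Of 21 Hox genes, which record body position, Hoxd9 (10.4 to 3.53 RPM) and Hoxd3 (4.48 to 0.973 RPM) fell and Hoxd12 rose (7.49 to 16.4 RPM). The retinoid genes gave opposite calls too: Crabp1, which binds retinoic acid in cells, rose from 3.73 RPM in +/+ (log2 2.10, implied SE 0.34), and Rarres1 (44.7 to 18.9 RPM) and Rarres2 (8.20 to 3.35 RPM) fell. Emx2, Hoxd12 and Rarres2 lost their calls with the dispersion doubled.

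Guidance genes gave 5 lower and 3 higher calls among 52. The Eph receptors Ephb6 (68.3 to 9.24 RPM, log2 -2.89, implied SE 0.29) and Ephb3 (104 to 40.7 RPM), the Slit receptor Robo2 (29.2 to 12.3 RPM) and Sema3b (53.7 to 24.5 RPM) fell. The ligand Slit2, given above, and the semaphorin receptors Plxnb1 (4.65 to 9.84 RPM) and Plxnc1 (0.892 to 3.45 RPM) rose. Robo2, Sema3b and these 3 risers lost their calls with the dispersion doubled.

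Of 29 genes of glycolysis and hypoxia, 2 rose and 3 fell, and the carbonic anhydrases differed in direction: Car12 rose from 2.08 to 11.5 RPM (log2 2.47, implied SE 0.40), while Car9, a hypoxia target, fell from 11.0 to 3.24 RPM (log2 -1.77, implied SE 0.36). The lactate exporter Slc16a3 rose from 4.51 to 14.0 RPM, and Ndrg1 (43.6 to 16.3 RPM) and Pdk1 (22.1 to 11.3 RPM) fell. Of 22 xenobiotic and redox genes 4 fell, Gstm1 (53.4 to 21.0 RPM), Gstt1 (14.8 to 4.69 RPM), Sod3 (90.1 to 47.7 RPM) and Aldh3a1, from 24 reads to 2 (log2 -3.47, 95% counting interval -6.60 to -1.46). Of 27 stress genes Ddit3 (CHOP) was the single call, lower at 70.6 and 39.4 RPM. That share is near the 4.21% called over all tested genes. Of 10 replication-dependent histone genes, whose RNA mostly lacks poly(A), Hist1h1c (66.1 to 35.9 RPM) and Hist2h2aa1 (5.23 to 1.69 RPM) fell. Hist2h2aa1 overlaps Gm20634 on the same strand and may share its reads. Pdk1, Sod3, Ddit3, Hist1h1c and Hist2h2aa1 lost their calls with the dispersion doubled.

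Genes near Usp28 were examined because embryos of different genotype can also differ at loci linked to a targeted gene. Of 86 tested genes that start within 5 Mb of the Usp28 start (GRCm38 annotation), 3 rose and 3 fell, with a median log2 ratio of 0.13, and 4.75% of the tested genes on chromosome 9 were called. Atm rose as given above, Mpzl3 rose from 2.65 to 7.51 RPM and Mpzl2 from 0.324 to 2.19 RPM, the last 2 being neighbouring adhesion genes. C1qtnf5 (40.3 RPM in +/+, log2 -1.08), Mfrp (40.5 to 19.1 RPM, log2 -1.08) and Gm20444 (35.7 to 16.2 RPM) fell with nearly equal levels, and C1qtnf5 and Mfrp are known to share a transcript, so they may be 1 change counted more than once. These 6 genes apart from Atm are outside the rule for named genes. A linked difference and loss of Usp28 cannot be told apart here.

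Cells with a single intact allele were compared with the same 3 +/+ libraries, so their differences from +/+ are not independent of those above and are set side by side without a test of likeness. In that comparison 1406 of 17035 genes were called (8.25%). Its implied coefficient of variation was 31.8%, against 20.9% for -/-, so a ratio of a given size was harder to call. An uncalled gene in +/- is therefore not shown to be unchanged. Several genes that fell in -/- were called lower in +/- too: Sfrp2 was 16.2 RPM in +/- against 83.6 RPM in -/-, Postn 138 against 260.0 RPM, Eln 14.8 against 20.6 RPM, Penk 12.1 against 61.8 RPM, Bmp2 0.162 against 1.40 RPM, Fmod 79.6 against 160.1 RPM, Fos 8.82 against 4.63 RPM and Egr1 238 against 223 RPM. Igf1 and Ptgis, lower in -/-, were called higher in +/-, at 41.9 RPM against 10.0 RPM in +/+ and at 254 RPM against 69.8 RPM. Dcn (94.7 RPM, adjusted p = 0.0778) and Cxcl12 (743 RPM, adjusted p = 1.00) were uncalled in +/-. Of the genes that rose in -/-, Efemp1 (357 RPM), Ccng1 (331 RPM), Nes (141 RPM) and Isyna1 (57.7 RPM) were called higher in +/- as well, Gjb2 (5.78 RPM) and Il1rl1 (22.4 RPM) were called lower, and Igf2 (69.8 RPM) and Car12 (3.15 RPM) were uncalled. None of the 6 called mitosis genes was called in +/-, where their levels were 30.5 RPM for Cenpe, 21.0 for Cenpf, 31.0 for Ect2, 23.4 for Aspm, 23.6 for Hmmr and 110.1 for Anln. Each of these lay below the +/+ level of the gene. Upk1b and Msln, genes of the mesothelium, stood far apart in +/-, at 383 and 476 RPM against 0.568 and 20.9 RPM in +/+, as did Des at 97.4 RPM. Xist was 296 RPM and Ddx3y 7.89 RPM in +/-, so that group held more RNA typical of female cells than +/+ or -/- did, and the part of this in its differences was not tested.

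**Figure D4:**
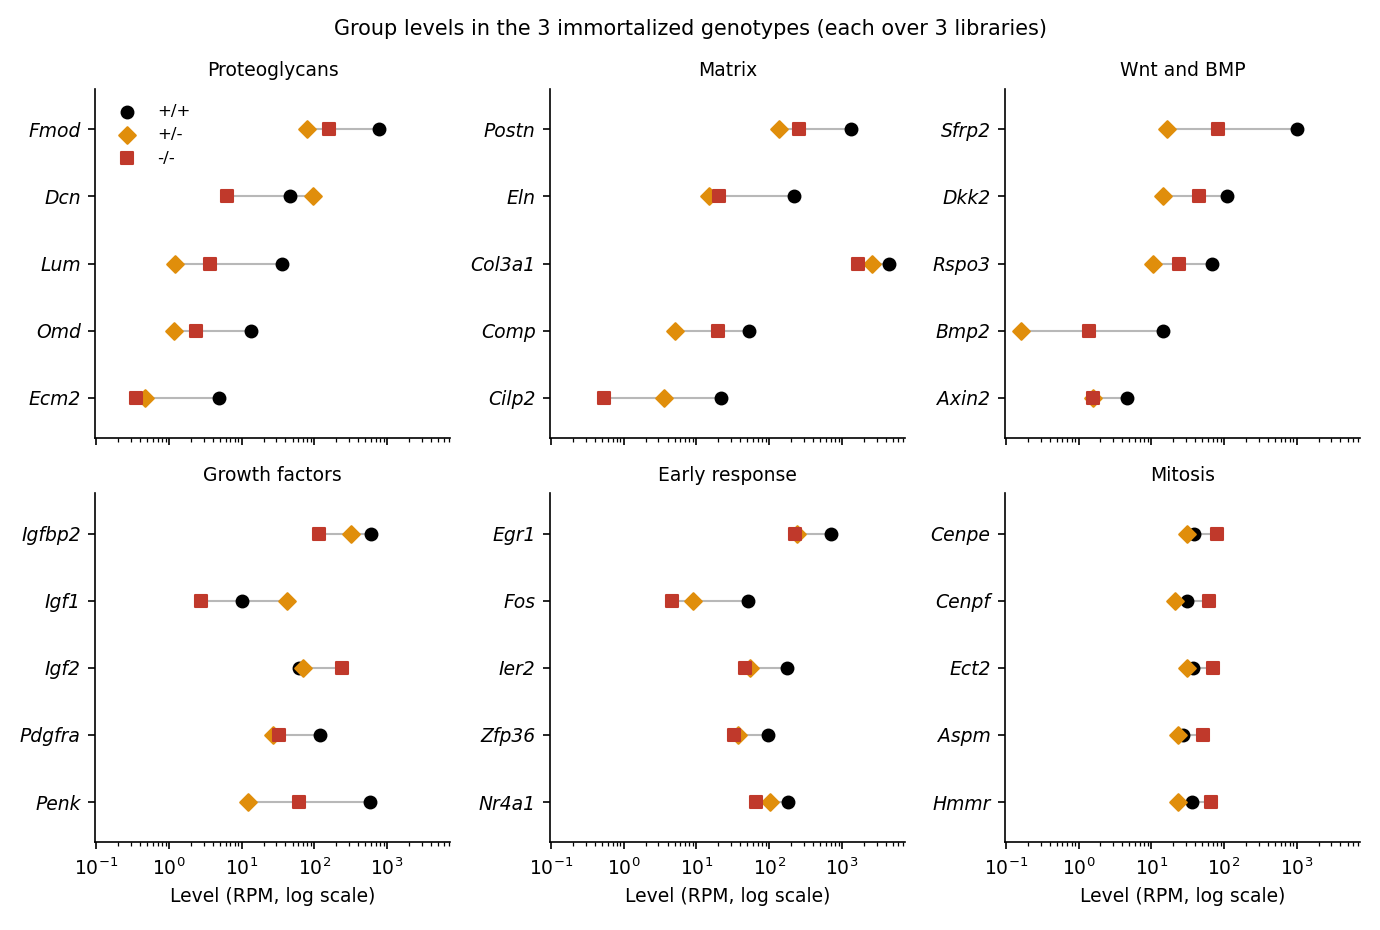
Group levels in RPM (log axis) of 30 named genes in the immortalized +/+ (circles), +/- (diamonds) and -/- (squares) groups, each over 3 libraries. For Sfrp2, Penk and Bmp2 the +/- level lies below the -/- level, and for Dcn (uncalled in +/-) and Igf1 it lies above +/+. For the mitosis genes, all uncalled in +/-, it lies below +/+, with log2 ratios from -0.23 for Aspm to -0.63 for Hmmr.

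The contrast of immortalized -/- with +/+ was set against the same contrast in Ras cells, which uses other libraries throughout. There 4381 of 15868 genes were called (27.6%), at a depth of 11.4 M reads for +/+ and 14.0 M for -/-, with an implied coefficient of variation of 14.4%. Of the 361 genes lower in immortalized -/- that could be tested in both sets, 201 were higher and 54 lower in Ras -/-, with a median log2 ratio of 0.97. Of the 159 genes higher in immortalized -/-, 29 were higher and 63 lower in Ras -/-, with a median of -0.32. Over all 15068 genes tested in both sets, 2270 were higher and 1842 lower in Ras -/-, with a median of -0.01. Among the 347 genes called in both sets 83 (23.9%) went the same way.

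A Wald test of the difference between the sets (Ras minus immortalized log2 ratio, with 0.5 reads added to each group and p-values adjusted over 15068 genes) called 3152 genes (20.9%), of which 421 were among the 520 called genes tested in both. Those 520 genes were selected by their immortalized ratio, which is part of the difference. Their share is therefore high by selection and cannot be read against the 20.9%. Several matrix and signalling genes that fell in immortalized -/- rose in Ras -/-. Postn was 0.529 RPM in Ras +/+ and 300.4 RPM in Ras -/-, Dcn 0.354 and 99.8 RPM, Lum 0 and 22.6 RPM, Sfrp2 0 and 109 RPM, Bmp2 0 and 170.5 RPM, Cxcl12 9.66 and 456 RPM, C4b 0.443 and 24.7 RPM, Gas6 0.0882 and 42.2 RPM, Pdgfra 21.6 and 90.9 RPM, and Col3a1 292 and 1145 RPM. The 0 reads of Sfrp2, Bmp2 and Lum in Ras +/+ make their rises there at least 412-fold, 646-fold and 85.5-fold, against a floor of 3 reads over the group. The adjusted p of the difference was 1.7e-100 for Cxcl12, 2.6e-65 for Postn, 1.2e-41 for Dcn and 2.5e-23 for Col3a1.

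Some genes kept their direction. Penk fell in Ras cells too, from 180.3 to 47.4 RPM, as did Wnt10b (59.0 to 1.43 RPM), Six2 (58.6 to 0 RPM), Sema3b (19.6 to 0.932 RPM) and Msln (425 to 5.09 RPM). Car12 (0.263 to 64.7 RPM), Sulf1 (6.16 to 259.7 RPM) and Il1rl1 (898 to 1798 RPM) rose in both sets, the Il1rl1 ratio differing by 0.02 on the log2 scale (SE 0.32, adjusted p = 0.971). Genes that rose in immortalized -/- and fell in Ras -/- included Efemp1 (38.2 to 0.143 RPM), Pmaip1 (57.2 to 4.88 RPM), Nes (35.5 to 7.31 RPM) and Tfrc (274 to 143 RPM). Of the mitosis genes, Cenpe was 146 and 127 RPM in Ras cells and its ratio differed between the sets (difference -1.25, SE 0.34, adjusted p = 0.00194), while that of Aspm, 51.8 and 90.6 RPM, did not pass the test of a difference (-0.10, SE 0.34, adjusted p = 0.883). Fos was 0.882 and 2.58 RPM and Egr1 34.8 and 77.9 RPM, both with a called difference (adjusted p = 2.9e-13 and 2.6e-15). Xist was 336 RPM in Ras +/+ and 0.215 RPM in Ras -/-, and Ddx3y 10.7 and 57.5 RPM, so the Ras groups differed in sex-linked RNA where the immortalized groups did not pass that test, and the part of this in the differences was not tested.

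**Figure D5:**
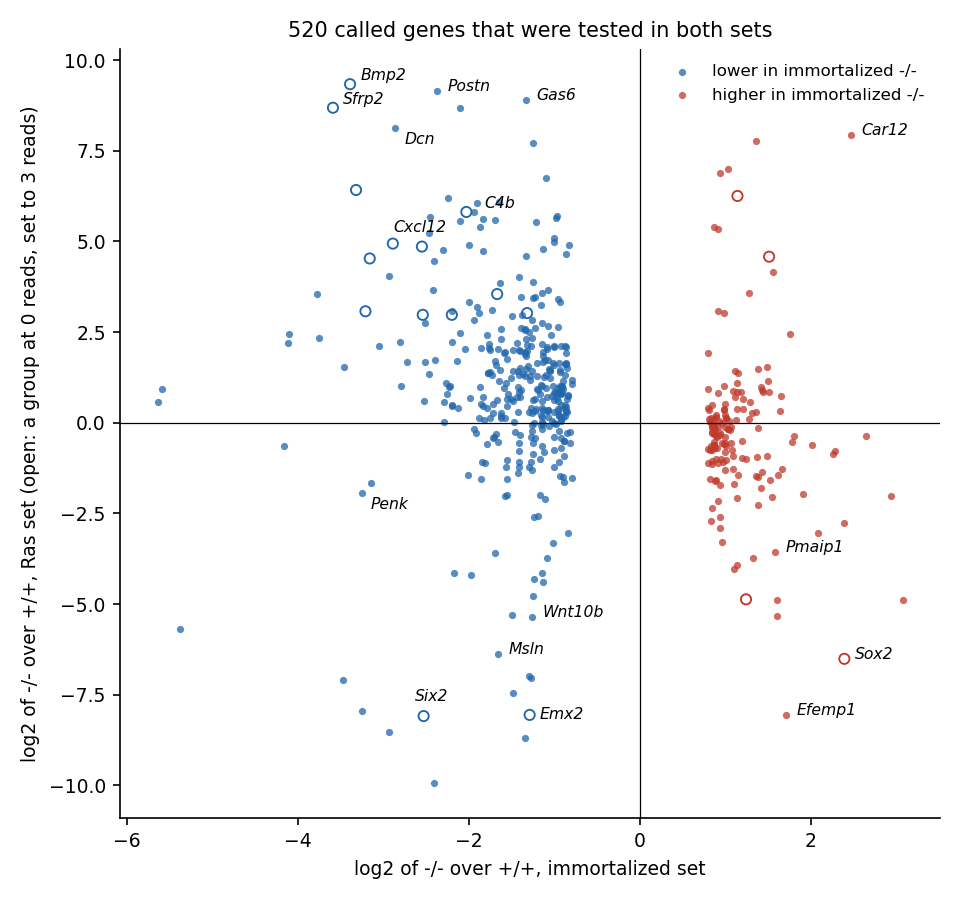
log2 of -/- over +/+ in the immortalized set (horizontal) and in the Ras set (vertical) for the 520 called genes tested in both, blue for lower and red for higher in immortalized -/-, with open points where a Ras group had 0 reads and was set to 3 reads. Most blue points lie above 0 on the vertical axis, where 201 of 361 were called higher in Ras -/-.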

How the data were processed

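RNA-seq of mouse embryonic fibroblasts was used as the authors' 2 deposited tables of group comparisons. Per the submitters' processing notes, CASAVA, FastQC, Bowtie 0.12.8, mm9 and edgeR were named. Per the file headers, each comparison holds a p-value, a log2 concentration and a log2 ratio with +/+ as the numerator. No values of single libraries were used, and 0 columns of per-sample values were left out. From 37576 gene IDs (35 repeated lines dropped), 94.6% of those tested had a symbol.

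Computed here, with numpy 2.4.6, scipy 1.17.1 and pandas 2.3.3: group levels as 2 to the log2 concentration plus or minus the log2 ratio over 2; depth from the spacing of low values, of which 95.3% (+/+) and 97.6% (-/-) lay within 0.1 of a whole read; the dispersion that best gave the deposited p; and Benjamini-Hochberg adjustment at 0.05 over genes of at least 1 RPM. The floor is 3 reads, 0.244 RPM in +/+ and 0.264 RPM in -/-. Intervals on counts and floors cover counting error only. The deposited p-values follow the read counts and a dispersion common to all genes, not the spread of each gene between libraries. The spread between these libraries may be partly technical. Calculations were checked on simulated data.

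The 57 gene lists and the tests were chosen with earlier results of these data known. Named genes are the 15 largest rises and falls at 10 RPM or more, up to 6 called members of each list (2 uncalled members where none was called), the 5 highest called in each direction, fixed genes of the Usp28 system, and 8 in each direction with the largest difference from Ras cells. Further list members, marker genes and neighbours of Usp28 named in the text were chosen after their values were seen. Some genes are not reported here. Promoter windows are RefSeq's for GRCm38.p6, matched by symbol for 10346 of 16727 tested genes. Alternatives were no level filter, a minimum of 5 RPM, adjusted p under 0.01, a log2 ratio of at least 1, doubled dispersion, p rebuilt from the dispersion, centred folds, and 3 added reads.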

Additional observations from a re-analysis of the deposited data

Results flagged for a closer look

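The contrast of -/- with +/+ differed between Ras and immortalized cells for the following named genes, by the Wald test of the difference of the log2 ratios described above. Differences are Ras minus immortalized, and each SE comes from the test with 0.5 reads added to each group. Higher in Ras -/- relative to the immortalized contrast were Bmp2 (at least 12.73), Sfrp2 (at least 12.28), Postn (11.52, SE 0.65), Dcn (11.02, SE 0.77), Gas6 (10.24, SE 1.22), Lum (at least 9.74), Ephb6 (at least 7.82) and Gstt1 (7.75, SE 1.00). Bmp2, Sfrp2, Lum and Ephb6 had 0 reads in Ras +/+, which was set to 3 reads for the bound. Lower in Ras -/- were Xist (-11.10, SE 0.84), Efemp1 (-9.77, SE 0.98), Gm43517 (-5.59, SE 1.25), Tro (-5.16, SE 0.78) and Pmaip1 (-5.13, SE 0.42). Sox2, Emx2 and Six2 had 0 reads in Ras -/-, and with 3 reads there their differences were -8.90, -6.76 and -5.56, the least size that the floor allows. Gas6 and Gstt1 had 1 and 2 reads in Ras +/+, and Gm43517, Efemp1 and Xist had 1, 2 and 3 reads in Ras -/-. Gm43517 shares exons with another gene on the same strand, so its reads are uncertain. The adjusted p was 0.00121 or less for each of the 16.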

How the results depend on the processing

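A limit is that calls rest on group values and a single dispersion. With that dispersion doubled, 301 genes were called (50 higher, 251 lower), 18 list members rose and 95 fell, and 1708 differences from Ras cells were called (1112 higher, 596 lower). At an adjusted p under 0.01, 424 genes were called, 92 of them higher, and 25 list members rose. Without the level filter 140 genes were called higher. With a log2 ratio of at least 1 as a further condition, 134 genes and 28 list members were higher. With centred folds the uncalled Phlda1 (-0.02) and Rpl8 (-0.05) changed sign. Of the 216 named genes, 66 lost their call with the dispersion doubled, 25 without the filter, 11 with centred folds and 4 with p rebuilt from the dispersion. The 16 differences above, the largest in each direction among the named genes, kept their call under each setting in which they could be tested. No paired analysis was possible because the tables hold no values of single libraries, and for the same reason leaving out replicates and another normalization of counts could not be run. Depth limits calls at 1 to 2 RPM to log2 ratios of 1.67 or more.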
